A study of Mus musculus with 24 samples.

Results

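The liver response to a diet with 1.0% phloridzin was compared with that to the control diet on 11 of the 24 arrays of the series, 5 arrays at 1.0% (replicates 2 to 6) and 6 controls (replicates 1 to 6). All mice were male BALB/c animals that the labels give as 6 weeks old, fed the purified AIN-93G diet for 14 days, with 0, 0.1, 0.5 or 1.0% phloridzin added. The labels describe 6 mice per diet, 3 to a cage, with free access to food and with the dark period during the day. Liver RNA was hybridised to Affymetrix mouse arrays, on which a probe set reports the signal of 1 transcript. The arrays of the comparison were chosen by their measured values as well as by their labels, as described next, so the number of samples is a reading of the data and not of the labels alone.

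Near-identical arrays were joined into RNA samples. Over 1468 bright genes, the SD of the log2 difference between 2 arrays was 0.0519 to 0.0551 within the pairs 2 and 3 and 5 and 6 at 1.0%, 0.108 to 0.112 between these pairs, and 0.223 to 0.254 between replicate 4 and those 4 arrays. Replicate 1 at 1.0% lay at 0.514 to 0.52 from the other 1.0% arrays and at 0.0515 to 0.0532 from replicates 1, 3 and 6 at 0.1%, an RNA that carries the labels of both diets. Its arrays were left out under both labels. The 1.0% diet therefore holds 2 RNA samples, replicates 2, 3, 5 and 6 averaged, and replicate 4. The control diet holds 4, replicates 1 and 3 averaged, 2 and 4 averaged (0.0431 to 0.0526 within these pairs), 5, and 6. Control arrays of different RNA samples differed by 0.164 to 0.282, and control arrays differed from 1.0% arrays by 0.201 to 0.34. The joining of pairs 2 and 3 with 5 and 6 matters for single genes, since their median absolute difference over all genes was 0.18, against 0.221 between the 2 samples at 1.0% and 0.171 to 0.246 between control samples. The labels do not say that the samples are separate mice, so a p-value here measures sample-to-sample spread, which may be technical.

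Phloridzin is a glucoside of the apple tree that blocks the sodium-glucose cotransporters SGLT1 of the gut and SGLT2 of the kidney, so that less glucose is taken up from food and more is lost in urine. The liver answers a shift in glucose and insulin through regulated genes: insulin represses Igfbp1 and the gluconeogenic enzymes through FOXO1, SREBP proteins drive the synthesis of fatty acids and cholesterol, and PPARA drives fatty acid oxidation in fasting. Protein folding in the secretory hepatocyte depends on chaperones of the endoplasmic reticulum, which the unfolded protein response induces, and on cytosolic heat shock proteins under HSF1.

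Liver identity was checked on 10 hepatocyte markers, whose summed linear signal was 88110 and 89780 in the 2 samples at 1.0% and 85400 to 90490 in control liver. Array medians on the deposited scale were 11.2 to 15.9 at 1.0% and 14.1 to 18 in control, so values are given after quantile normalization, as log2 signal with a floor of 3.00. The 3' minus 5' signal of Gapdh, a sign of RNA integrity, was -0.345 ± 0.045 (SD, n = 4) in control and -0.327 ± 0.029 (SD, n = 2) at 1.0% (two-sided exact permutation p = 0.8), and that of actin was 1.41 ± 0.10 and 1.36 ± 0.21 (exact permutation p = 0.8). The spiked poly-A controls relative to the hybridisation controls stood at -5.04 and -3.40 at 1.0%, both below the control samples at -3.25 to -2.61 (exact permutation p = 0.0667, the smallest that the 15 splits of 4 against 2 samples allow). The part of this difference in the gene results was not tested.

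Each of the 13136 genes was tested in limma, and 2 genes (0.0152%) were called at a Benjamini-Hochberg adjusted p under 0.05: Clec2d rose and Rbmxl2 fell. An unadjusted p under 0.05 was reached by 849 genes (6.46%), 321 higher (2.44%) and 528 lower (4.02%) at 1.0%. With no difference in any gene, a share of about 0.05 would be expected. Beside the test, the changes that both 1.0% samples share are described by their position relative to the control samples. In 1069 genes (8.14%) both 1.0% samples lay above the highest control sample, and in 1639 (12.5%) both lay below the lowest. These genes are called shared higher and shared lower below, which is a description and not a test. Were the samples exchangeable, 1 of the 15 splits of 4 against 2 would put both 1.0% samples on top, and 1 at the bottom. Position alone would so give a share of about 0.0667 each way, beside the 8.14% and 12.5% found. In 4533 genes (34.5%) both samples lay within the control range, and in 375 and 348 genes the samples lay beyond opposite ends of it. Most shared genes lay close to the control range: 31 of the higher and 44 of the lower genes cleared it by at least 0.5 on the log2 scale, and 3 each way by at least 1. The split of shared genes depends on the scaling. Higher genes made up 39.5% of the shared genes after quantile normalization, 8.75% with arrays centred on their medians (400 higher, 4169 lower) and 2.11% without scaling (94 and 4359), where the median of all genes lay at -0.199 and -0.355 instead of -0.026. The split of the genes with an unadjusted p under 0.05 moved likewise, from 37.8% higher to 4.57% and 1.01%.

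**Figure D1:**
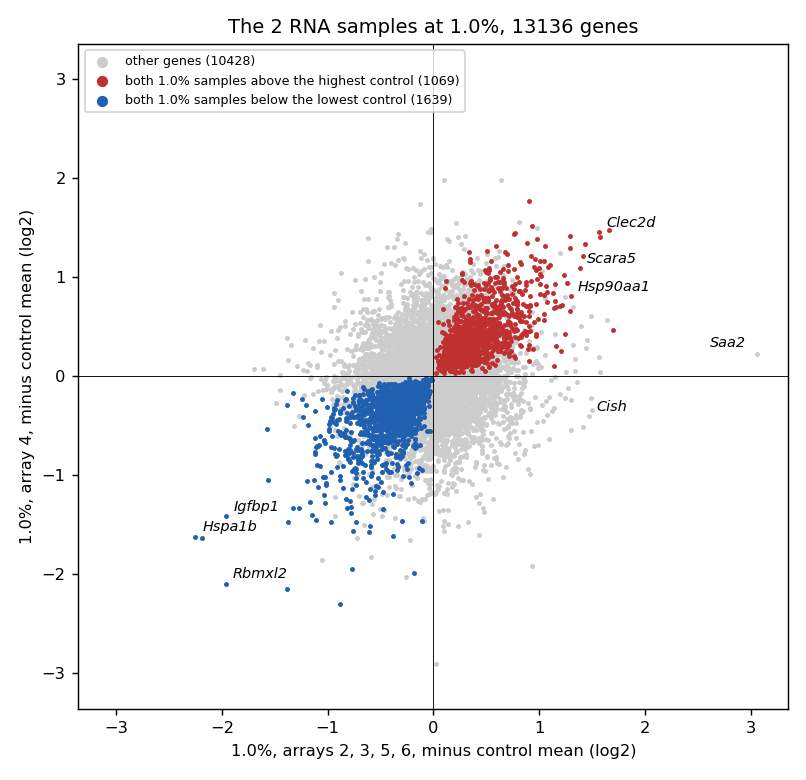
Each point is 1 of 13136 genes; the horizontal axis is the log2 signal of the 1.0% sample of arrays 2, 3, 5 and 6 minus the control mean, and the vertical axis is that of array 4. Red marks the 1069 genes with both samples above all control samples, blue the 1639 with both below; Clec2d and Rbmxl2 lie far out in both samples, Saa2 and Cish in 1 of them.

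Clec2d encodes a C-type lectin-like membrane protein that binds an inhibitory receptor of NK cells. Its log2 signal was 6.02, 6.18, 6.03 and 5.79 in the 4 control samples, and 7.57 and 7.46 in the 2 samples at 1.0%. Both 1.0% samples were higher than every control sample, by 1.28 at the closest, and the difference was 1.51 ± 0.19 (log2 ± SE; 2.85-fold; limma adjusted p = 0.0251). The 5 arrays behind the 1.0% samples spread from 7.09 to 8.05, none within the control range, while the left-out 1.0% array read 6.12. At 0.1% the 3 samples read 6.38, 6.91 and 6.37, and at 0.5% the 2 samples read 6.08 and 6.32. The call was lost without each control sample, without each 0.5% sample and without each 1.0% sample, and was kept in 3 of 11 runs that left out a sample, with adjusted p up to 0.704. It was also lost with centred arrays (0.0541), without scaling (0.222), with a floor of 16 (0.127), without the filter (0.0566) and without a variance trend (0.055), and kept in the other 9 settings. With all arrays under their labels, the left-out one included, the difference was 1.27, and over all 25 settings it lay between 1.13 and 1.57.

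Rbmxl2 encodes an RNA-binding protein known from male germ cells, and it was dim in liver. Control samples read 5.01, 5.50, 4.56 and 5.32, and 1.0% samples 3.13 and 3.00, at or near the floor. Of the 5 arrays at 1.0%, 4 were at the floor of 3.00 and replicate 6 read 3.52. The difference was -2.03 ± 0.28 (limma adjusted p = 0.0335), a value that the floor sets in part. The floor also narrows the spread behind this SE and p-value, with an SD of 0.09 at 1.0% and 0 at 0.5%. Both samples at 0.5% also read 3.00, whereas those in the fit at 0.1% (replicates 2, 4 and 5) read 4.90, 5.19 and 5.33. Replicates 1, 3 and 6 at 0.1%, left out of the fit, read 3.00, 3.77 and 3.00. The left-out 1.0% array, near-identical to them, read 3.69, so arrays labelled 0.1% lay on both sides. The call was kept in 2 of 11 runs that left out a sample (without control replicate 5 or 0.1% replicate 5; adjusted p up to 0.788 in the others), and with a floor of 16 the difference was -1.09 (adjusted p = 0.398). The other 4 genes that cleared the control range by at least 1 were named after their values were seen, and all were dim: 4930413G21Rik and Lgals2 averaged 3.30 and 3.25 in control liver and were higher at 1.0% by 1.49 and 1.36, and Btbd2 and Rgl1 averaged 5.31 and 4.67 and were lower by 1.76 and 1.27, none past the adjusted threshold.

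Below these 2 genes no change passed the adjustment, and the leading genes are given as measured values. Among the 179 shared higher and 290 shared lower genes with an unadjusted p under 0.05 and a log2 signal of at least 6 in the higher group, the 12 largest differences each way were taken. On the higher side, after Clec2d, stood Scara5, a receptor for ferritin. Its control samples read 7.53, 6.94, 6.67 and 6.63, and its 1.0% samples 8.33 and 8.04, a difference of 1.24 ± 0.25 (log2 ± SE; limma adjusted p = 0.564). All 5 arrays at 1.0% read 8.04 to 8.58, and the samples at 0.5% read 8.09 and 7.53. A second Scara5 probe set differed by 0.66. Hsp90aa1, the inducible cytosolic HSP90, was the brightest of the 12. Control samples read 10.99, 10.81, 10.57 and 10.30, and 1.0% samples 11.97 and 11.48, a difference of 1.05 ± 0.32 (adjusted p = 0.707 in limma).

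The other higher genes of the 12 were dimmer. Tspan32, a tetraspanin of blood cells, read 5.52 to 5.87 in control and 6.65 and 6.66 at 1.0%, a difference of 0.98 ± 0.24. Inpp5j, an inositol polyphosphate 5-phosphatase, read 6.21 to 6.76 and then 7.40 and 7.44. Slc35a2, the UDP-galactose transporter of the Golgi, read 5.83 to 6.57 and then 7.39 and 7.11, but a second, dimmer probe set was shared lower (-0.40) and 3 others overlapped with control. The monocarboxylate transporter family gene Slc16a4, the potassium channel gene Kcnk1, Ppil1, Tsks and AI987944 had differences of 0.83 to 1.12. Mcm2, a subunit of the replicative helicase, stood at 0.95 ± 0.32 on its brightest probe set, but at -0.27 when probe sets that can match several transcripts were dropped. Among the 11 other probe sets of the 12 genes, 8 had the same sign and 2 were shared higher.

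On the lower side the largest difference was in Hspa1b, the stress-inducible cytosolic HSP70. Control samples read 9.68, 9.29, 11.97 and 10.69, a wide spread, and 1.0% samples 8.15 and 8.79, a difference of -1.94 ± 0.54 (limma adjusted p = 0.703). Both 1.0% samples lay below the lowest control sample, and the 3 Hspa1b probe sets were all shared lower, at -1.94, -1.66 and -1.62. Igfbp1, a secreted binding protein of insulin-like growth factors, read 8.16, 9.52, 8.72 and 9.32 in control and 6.97 and 7.52 at 1.0%, a difference of -1.69 ± 0.43 (limma adjusted p = 0.624). All 5 arrays at 1.0% lay between 6.88 and 7.52, and the left-out 1.0% array read 7.12, also below the control range. At 0.1% Igfbp1 read 7.23, 8.24 and 8.36, and at 0.5% it averaged 8.26, with 1 of the samples at 7.52 and the other within the control range.

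Nr0b2 encodes SHP, the nuclear receptor that represses bile acid synthesis. It read 10.09, 9.85, 10.32 and 9.91 in control liver and 8.93 and 9.34 at 1.0%, a difference of -0.90 ± 0.21 (limma adjusted p = 0.624). At 0.5% it read 9.50 and 8.77 and at 0.1% 9.27, 9.81 and 9.71, so the samples of each dose lay below the control range. Myrf, a membrane-bound transcription factor, read 5.77 to 6.70 and then 5.09 and 5.00. Asrgl1, an asparaginase, was tight in control liver at 6.82 to 6.91 and read 6.12 and 5.87 at 1.0%. Its 3 further probe sets differed by -0.54, -0.47 and 0.36. Depp1, a FOXO target linked to autophagy, read 9.94 to 10.59 and then 9.13 and 9.56, and its second probe set was shared lower too.

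Acot1, Dnajb1, Irgq, Irf2bp2, Tmem39a and Ints3 completed the 12 lower genes, with differences of -0.77 to -0.87. Acot1 is a cytosolic acyl-CoA thioesterase and Dnajb1 an HSP40 cochaperone of HSP70. Other probe sets of Irf2bp2 (-0.17, -0.25 and 0.04), Tmem39a (0.05) and Dnajb1 (-0.25) overlapped with control. Among the 12 other probe sets of the 12 lower genes, 8 had the same sign and 4 were shared lower. Ints3, a subunit of the Integrator complex, shows what an average can hide: arrays 2, 3 and 4 at 1.0% read 4.89, 4.92 and 4.84, while arrays 5 and 6 read 6.17 and 6.15, within or above the control samples at 5.90 to 6.16. Its difference also went to 0.02 without probe sets that can match several transcripts. The left-out 1.0% array, whose diet the labels do not settle, lay outside the control range on the same side as the 1.0% samples in 2 of the 12 higher genes (Slc35a2 and Tspan32) and 4 of the 12 lower genes (Igfbp1, Nr0b2, Depp1 and Ints3). It lay beyond the opposite end in 4 higher genes (Scara5 6.28, AI987944 4.49, Slc16a4 3.88 and Hsp90aa1 9.85) and 3 lower genes (Acot1 6.90, Asrgl1 7.14 and Myrf 6.74), and within the range in 6 and 5. Of the 24 leading genes, 22 kept their sign in all 25 settings tried, the exceptions being Mcm2 and Ints3.

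**Figure D2:**
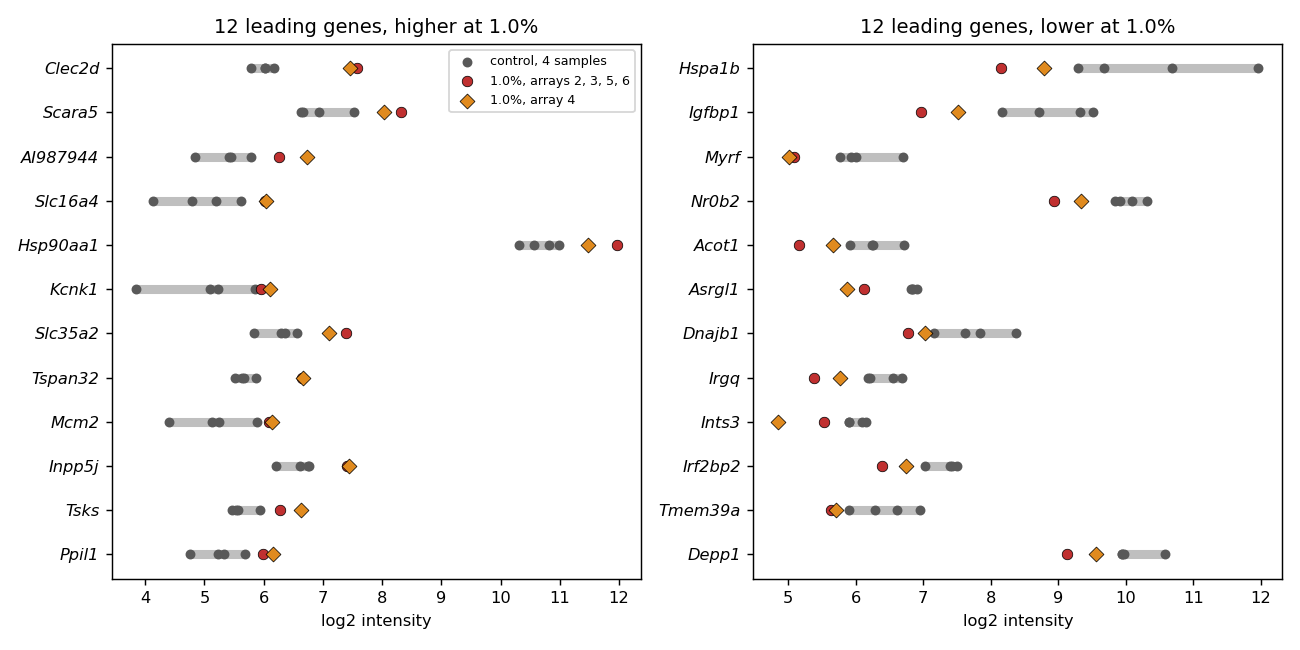
Log2 intensity of the 12 leading higher and 12 leading lower genes in the 4 control samples (grey, with a bar from the lowest to the highest) and in the 2 samples at 1.0% (red circle, arrays 2, 3, 5 and 6; orange diamond, array 4). The 2 samples lie outside the bar on the same side in all 24 genes because the genes were picked that way; Clec2d, Asrgl1 and Tspan32 combine a clear gap with tight control values, and Hspa1b a clear gap with a wide control range.

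Chaperones of the endoplasmic reticulum held a larger share of shared higher genes than the whole table. Of 25 measured genes of the unfolded protein and ATF4 responses, 7 (28%) were shared higher against 8.14% of all genes, and 2 (8%) were shared lower against 12.5%. An unadjusted p under 0.05 was reached by 9 (7 higher, 2 lower), against 6.46% of all genes. The median difference of the list was 0.18 against -0.026 for all genes. It was 0.26 in the sample of arrays 2, 3, 5 and 6 and 0.04 in array 4. With arrays centred on their medians the list's median turned to -0.06, which was 0.14 above that of all genes, and without scaling it was -0.22, or 0.13 above. Relative to the median of all genes, 8 members were shared higher after quantile normalization, beside 1250 of all 13136 genes. With centred arrays 5 members were, beside 1192 of 13136 genes, and without scaling 5, beside 1237 of 13114. None of the 25 members was called.

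Hspa5 encodes BiP, the HSP70 of the endoplasmic reticulum. Control samples read 12.03, 12.14, 12.37 and 12.12, and 1.0% samples 12.76 and 12.45. The difference was 0.44 ± 0.20 (limma adjusted p = 0.761), and its 2 other probe sets, at 0.48 and 0.60, were shared higher as well. Hsp90b1, the HSP90 of the same compartment, read 11.35, 11.36, 10.97 and 10.91 in control and 11.87 and 11.70 at 1.0%, a difference of 0.63 ± 0.23, with a second probe set at 0.94. Hyou1, a nucleotide exchange factor for BiP, read 8.11, 8.28, 8.69 and 8.51 and then 9.23 and 8.96 (0.70 ± 0.19). Dnajc3, a cochaperone that also restrains the kinase PERK, read 9.45, 9.42, 9.31 and 9.22 and then 9.96 and 9.84 (0.55 ± 0.19), and 3 of its 4 other probe sets were shared higher. Every 1.0% sample was above every control sample in these 4 genes.

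Smaller differences were seen in Canx (0.18 ± 0.12), the lectin chaperone calnexin, and in Xbp1 (0.21 ± 0.12), the transcription factor spliced by IRE1. Sel1l, a scaffold of the degradation of misfolded proteins, differed by 0.27 ± 0.23. The other probe sets of Canx (0.51 and -0.02) and Xbp1 (0.15, 0.20 and 0.06) overlapped with control. Another Sel1l probe set was shared higher (0.42), another shared lower (-0.34), and the remaining ones overlapped (0.10 and 0.12). Creld2 had the largest difference on the list, 1.10 ± 0.39, but it rested on 1 sample: arrays 2, 3, 5 and 6 gave 10.58 and array 4 gave 9.50, below the highest control sample at 9.71. Both shared lower genes belong to the same compartment. Dnajb9, an HSP40 that acts with BiP, read 10.23, 10.30, 11.28 and 10.76 in control and 10.05 and 9.75 at 1.0%. Herpud1, which takes part in degradation at the membrane of the endoplasmic reticulum, read 11.08, 11.03, 11.72 and 11.20 and then 10.48 and 10.61, and both of its probe sets were shared lower.

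The promoters of the shared higher chaperones are shown because several hold the ER stress element, the site through which ATF6 and XBP1 act on this group. In the 250 bases before the start of each gene in RefSeq (build GRCm38.p6), the letters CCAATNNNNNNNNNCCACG were searched on both strands, and the match is in capitals. They were found in 37 of 32851 promoters (0.113%). Of the 7 shared higher genes, 6 had a promoter in the table and 4 held a match, of the 2 shared lower genes none did, and of the 15 others with a promoter 4 did (Calr, Creld2, Pdia6 and Syvn1). A match is a description of the letters and not a measured site. The stretches are chr2:34772010-34772058 on the plus strand for Hspa5, chr10:86705518-86705671 on the minus strand for Hsp90b1, which holds 2 matches, the second on its opposite strand, chr11:50325785-50325833 on the minus strand for Canx and chr14:118937812-118937860 on the plus strand for Dnajc3. All are written 5′ to 3′ along the gene.
Hspa5: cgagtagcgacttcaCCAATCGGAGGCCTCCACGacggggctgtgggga
Hsp90b1: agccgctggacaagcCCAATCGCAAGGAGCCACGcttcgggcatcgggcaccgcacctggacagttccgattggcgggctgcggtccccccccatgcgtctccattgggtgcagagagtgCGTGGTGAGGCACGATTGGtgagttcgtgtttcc
Canx: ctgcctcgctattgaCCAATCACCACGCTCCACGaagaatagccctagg
Dnajc3: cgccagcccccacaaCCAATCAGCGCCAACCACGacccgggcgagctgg

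Among the cytosolic heat shock genes the members split. Of 14 measured, 5 had an unadjusted p under 0.05, against 6.46% of all genes. Shared higher were 3 (21.4%) and shared lower 4 (28.6%), against 8.14% and 12.5% of all genes. The higher ones were Hsp90aa1, the HSP90 cochaperone Stip1 (0.39 ± 0.15), which reads 7.24 to 7.61 in control and 7.96 and 7.65 at 1.0%, and the small heat shock protein Hspb1, which reads 5.55 to 5.91 and then 6.94 and 6.00. All 3 bright Hsp90aa1 probe sets were shared higher, at 1.05, 1.15 and 1.26. The lower ones were Hspa1a, Hspa1b, Dnajb1 and the HSP70 cochaperone Bag3. Hspa1a read 5.94, 4.56, 7.25 and 6.00 in control and 3.75 and 4.30 at 1.0%. It is a near-identical copy of Hspa1b, so their probe sets are not independent. In Hspa1a, Hspa1b, Dnajb1 and Bag3 alike, control replicate 5 was the highest and the sample of control replicates 2 and 4 the lowest of the control samples. The constitutive HSP70 Hspa8 lay within the control range in both 1.0% samples.

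**Figure D3:**
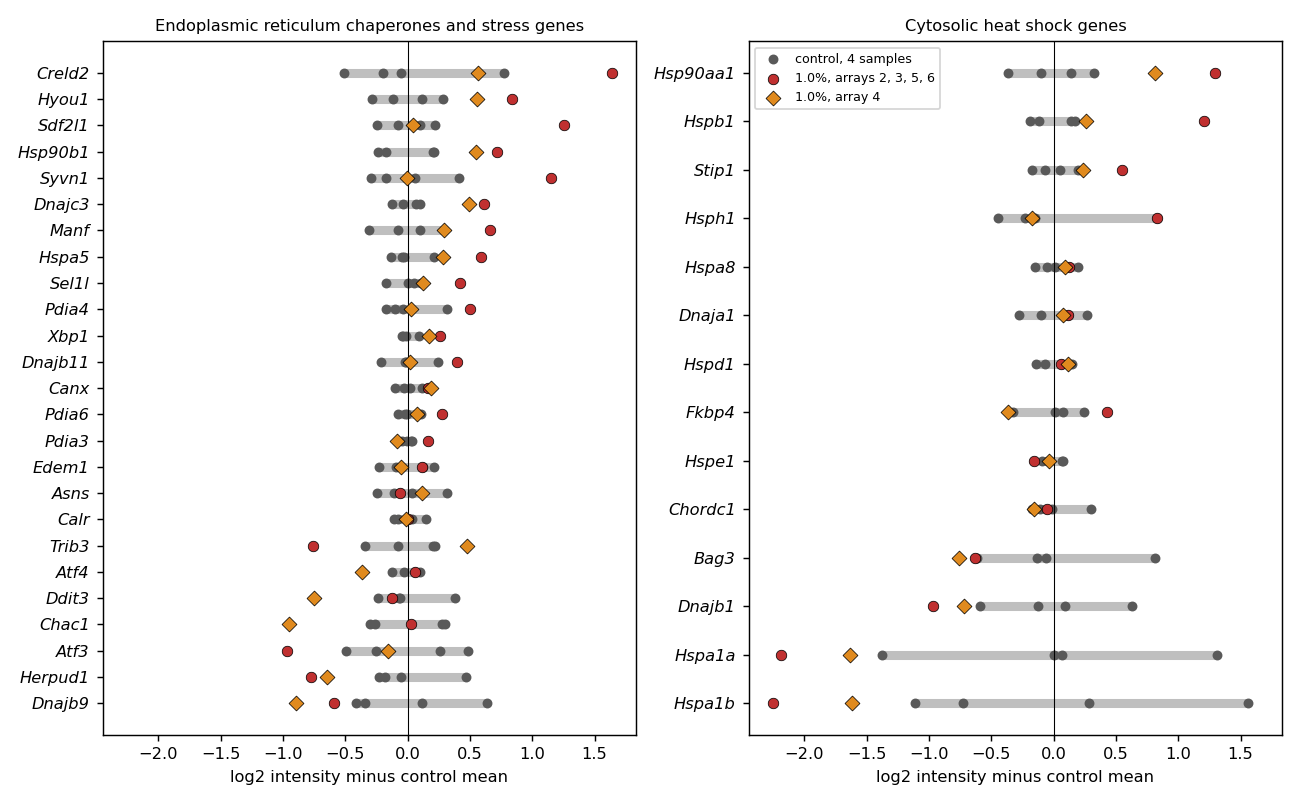
Log2 intensity minus the control mean for 25 genes of the endoplasmic reticulum chaperone and stress list (left) and 14 cytosolic heat shock genes (right), each with the 4 control samples (grey, bar from lowest to highest) and the 2 samples at 1.0%. Hyou1, Hsp90b1, Dnajc3 and Hsp90aa1 lie above the bar in both samples, Creld2, Sdf2l1 and Syvn1 in 1 sample, and Hspa1a, Hspa1b, Dnajb9 and Herpud1 below it in both.

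Genes of lipid metabolism shifted by little. Of 25 measured PPARA targets and fatty acid oxidation genes, none was shared higher and 7 (28%) were shared lower against 12.5% of all genes. An unadjusted p under 0.05 was reached by 4, all lower, against 6.46% of all genes in either direction and 4.02% lower. The median difference of the list was -0.18. It was -0.29 in arrays 2, 3, 5 and 6 and -0.12 in array 4, and 0.15 to 0.27 below the median of all genes under the 3 scalings. The peroxisomal thiolase Acaa1b read 12.75, 12.73, 12.73 and 13.01 in control and 12.24 and 12.55 at 1.0%, a difference of -0.41 ± 0.11 (limma adjusted p = 0.661). Creb3l3, a liver transcription factor that acts with PPARA in fasting, read 11.07, 10.94, 11.03 and 10.99 and then 10.72 and 10.71 (-0.29 ± 0.09). Acot1 read 5.92, 6.25, 6.24 and 6.72 and then 5.16 and 5.66. The other shared lower members, Cpt2 of the carnitine shuttle, the mitochondrial enzymes Acadvl and Acaa2 and the peroxisome gene Pex11a, differed by -0.11 to -0.26. Dimmer probe sets of Cpt2 (-0.02) and Pex11a (0.08) overlapped with control. Acaa2 had a dimmer probe set that was shared lower (-0.22) and another that overlapped (0.01). Cpt1a, which commits fatty acids to oxidation, stood at -0.05 ± 0.16, and the fasting hormone Fgf21 at -0.30 ± 0.30.

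Cholesterol synthesis genes lay on the other side: 16 of 18 measured were higher (88.9%, against 45.5% of all genes). Of the 18, 3 (16.7%) were shared higher against 8.14% of all genes and none was shared lower. An unadjusted p under 0.05 was reached by 5, against 6.46% of all genes, and the median difference of the list was 0.17. With arrays centred on their medians that median turned to -0.02, which was 0.18 above that of all genes. The mean of the members relative to control was 0.25 and 0.34 in the 2 samples at 1.0%, both within the control range of -0.22 to 0.38. Stard4, a sterol carrier, read 8.28, 8.62, 8.28 and 8.44 in control and 9.31 and 8.92 at 1.0% (0.71 ± 0.20; limma adjusted p = 0.707). Insig1, the sterol-regulated retention factor of SREBP, read 8.15, 8.59, 8.29 and 8.62 in control, and the 1.0% samples lay 0.59 and 0.39 above the control mean (0.49 ± 0.20), both above the highest control sample. Idi1, isopentenyl diphosphate isomerase, read 8.86, 8.99, 8.10 and 9.31 and then 9.32 and 9.59, so that 1 of its samples cleared the highest control by 0.01 only. A second Idi1 probe set overlapped with control (0.62). Control replicate 6 was the highest control sample in Sqle, Dhcr7, Idi1 and Insig1. Sqle, squalene epoxidase, read 7.32 there against 5.52 to 6.04 in the other controls and 6.79 and 7.38 at 1.0%, so its groups overlapped.

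The fatty acid and triglyceride genes had no common direction, with 2 of 21 shared higher (9.52%, against 8.14% of all genes) and 4 shared lower (19%, against 12.5%), 3 with an unadjusted p under 0.05 (6.46% of all genes), and a median of 0.06, which lay above that of all genes but 0.02 below it under both other scalings. Acly, ATP citrate lyase, read 9.67, 10.21, 9.70 and 10.25 in control and 10.36 and 10.37 at 1.0%, and Elovl6, an elongase, 7.49 to 8.10 and then 8.17 and 8.16. Dimmer probe sets of Acly (0.30, 0.39 and 0.13) and Elovl6 (0.35 and 0.64) that passed the filter had the same sign but overlapped with control. The shared lower members were Srebf1, which encodes SREBP1 (-0.30 ± 0.19), the acyltransferases Dgat1 and Agpat2 and the mitochondrial Mcat. Fasn stood at 0.22 ± 0.25 and Scd1 at 0.08 ± 0.13, both within the control range, though a dimmer Scd1 probe set was shared higher (up to 9.07 in control, 9.31 and 9.17 at 1.0%, a difference of 0.67).

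**Figure D4:**
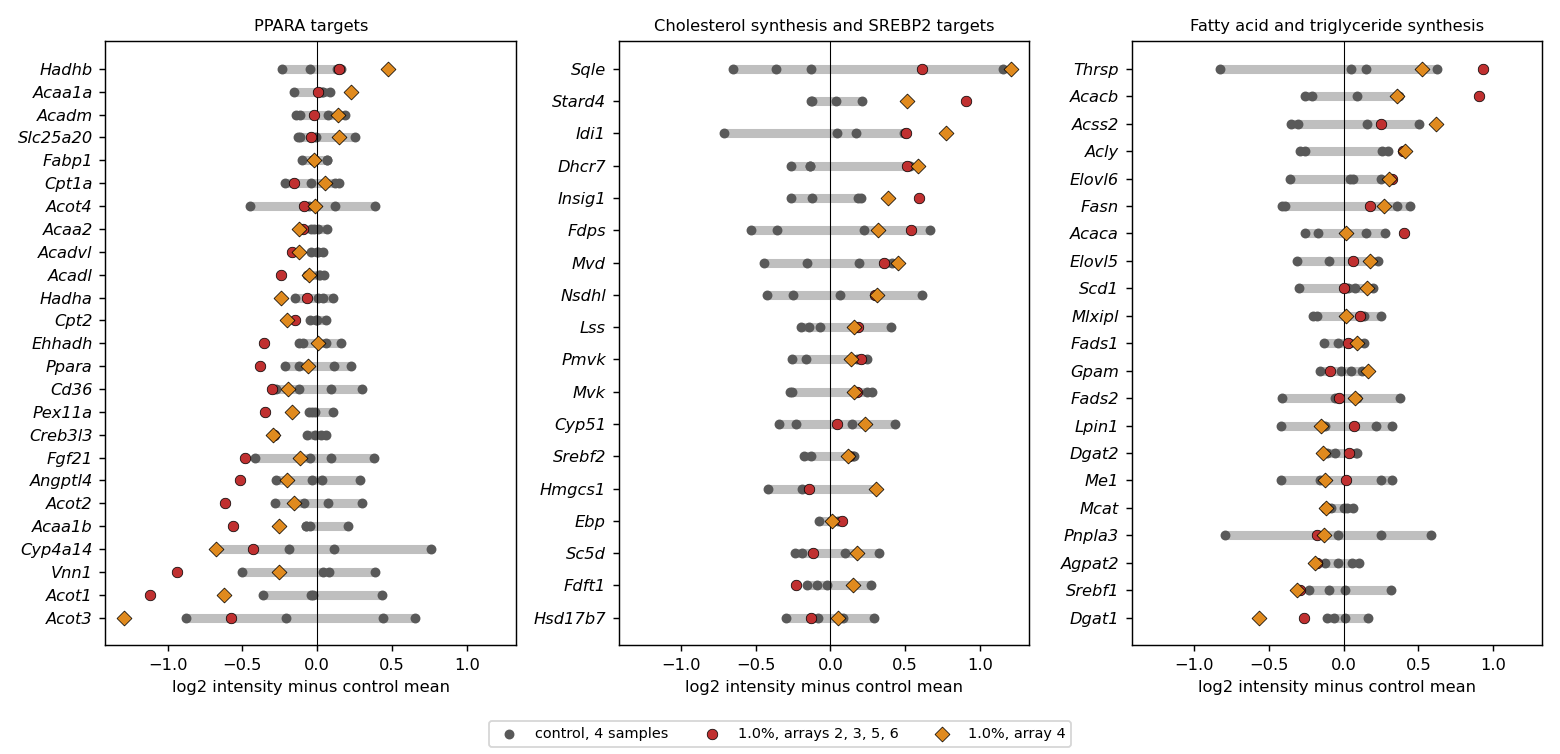
Log2 intensity minus the control mean for PPARA and fatty acid oxidation genes (left), cholesterol synthesis genes (middle) and fatty acid and triglyceride genes (right), with the control samples as grey points and bars and the 2 samples at 1.0% in colour. Acaa1b, Creb3l3 and Acot1 lie below the bar in both samples, Stard4 and Insig1 above it, and most other genes within or near it.

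Glucose metabolism, the process that phloridzin is known to act on, showed few shared differences. Slc2a2, the glucose carrier GLUT2, read 11.21 to 11.55 in control and 11.38 in both 1.0% samples. G6pc, which releases glucose from glucose 6-phosphate, read 11.16, 11.13, 10.89 and 11.12 in control, and the 1.0% samples went apart, at 10.20 and 11.23. Pck1, the first committed enzyme of gluconeogenesis, read 11.15 and 11.67 at 1.0% against 11.11 to 11.66 in control. The phloridzin targets Slc5a1 and Slc5a2 are genes of gut and kidney, and they were dim in liver, at 3.54 or less for Slc5a1 and 5.23 or less for Slc5a2 in these 6 samples. Of 11 gluconeogenic genes, 2 (18.2%) were shared lower, near the 12.5% of all genes, and none was shared higher. They were Pcx, pyruvate carboxylase (-0.29 ± 0.13), and the alanine transaminase Gpt (-0.23 ± 0.11). Gpt has no settled direction, since its dimmer probe set was shared higher, at 6.07 to 6.72 in control and 6.87 and 7.06 at 1.0%. Of 16 glycolytic genes, Pfkfb2 alone (6.25%, against 8.14% of all genes) was shared higher, at 0.23 ± 0.35, and none was shared lower. Pklr, liver pyruvate kinase, stood at 0.12 ± 0.15. Of 12 glycogen genes, 2 (16.7%) were shared lower, Ppp1r3b, which targets a phosphatase to glycogen (-0.62 ± 0.30), and Gyg, glycogenin (-0.31 ± 0.20), and 1 (8.33%) was shared higher, the kinase Gsk3b (0.30 ± 0.17). These shares are near the 12.5% and 8.14% of all genes.

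Of 16 genes of insulin and FOXO signalling, 3 were shared lower (18.8%), near the 12.5% of all genes. The growth factor gene Igf1 was the 1 shared higher (6.25%, near the 8.14% of all genes), at 0.20 ± 0.10. Beside Igfbp1, the lower ones were Klf15, a fasting-induced transcription factor of amino acid use, which read 9.51, 9.22, 9.40 and 9.28 in control and 8.56 and 8.94 at 1.0%, and Foxo1 itself, at 7.46 to 7.83 and then 7.37 and 7.41. The promoter of Igfbp1 is shown because insulin acts on it through a known element with the letters CAAAACAA. They were searched on both strands of the same 250 bases and were found in 727 of 32851 promoters (2.21%). Among the 16 genes it was also found in Irs1 and Irs2. The stretch is chr11:7197664-7197701 on the plus strand (GRCm38.p6), with the match in capitals.
Igfbp1: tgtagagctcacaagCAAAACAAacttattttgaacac

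Of 17 bile acid and sterol transport genes, 4 (23.5%) were shared lower, against 12.5% of all genes: Nr0b2, Nr1h4, which encodes the bile acid receptor FXR (-0.29 ± 0.14), the phospholipid exporter Abcb4 (-0.18 ± 0.11) and the bile acid CoA ligase Slc27a5 (-0.19 ± 0.12). Slco1a1, an organic anion importer, was the 1 shared higher (5.88%, against 8.14% of all genes), at 0.56 ± 0.29. Cyp7a1, which sets the pace of bile acid synthesis and is repressed by SHP, read 6.06, 5.42, 5.83 and 5.45 in control and 7.14 and 6.05 at 1.0%, so array 4 lay within the control range. A dimmer Cyp7a1 probe set was shared higher, at 3.73 to 4.18 in control and 4.81 and 4.20 at 1.0%. At 0.5% the brighter Cyp7a1 probe set read 8.07 and 7.52. Of 16 xenobiotic genes, 4 (25%) were shared lower against 12.5% of all genes, the cytochromes Cyp3a11 (-0.21 ± 0.11) and Cyp2b9, the carboxylesterase Ces2a (-0.34 ± 0.17) and the retinal dehydrogenase Aldh1a1 (-0.17 ± 0.10), and Tiparp, a target of the aryl hydrocarbon receptor, was the 1 shared higher (6.25% against 8.14%; 0.49 ± 0.22). Cyp2b9 read 4.20 to 5.09 and then 3.16 and 3.68, close to the floor, so its difference of -1.31 ± 0.37 is of a dim transcript. Cyp2b10 read 3.75, 4.40, 6.07 and 5.22 in control and 3.81 and 3.00 at 1.0%, an overlap, while its 2 other probe sets, just as dim, were shared lower (-1.43 and -1.28).

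Of 17 NRF2 and glutathione genes, 1 (5.88%) was shared higher and 3 (17.6%) shared lower, near the 8.14% and 12.5% of all genes. Gstm6, a glutathione transferase, read 9.52, 9.58, 9.42 and 9.47 in control and 9.97 and 9.74 at 1.0% (0.36 ± 0.12), and Ephx1, microsomal epoxide hydrolase, 10.68 to 10.98 and then 10.46 and 10.52 (-0.38 ± 0.15). Of 22 amino acid and urea cycle genes, 2 (9.09%) were shared higher and 6 (27.3%) lower, against 8.14% and 12.5% of all genes. Arg1, arginase, read 12.38, 12.42, 12.37 and 12.29 in control and 12.65 and 12.71 at 1.0% (0.31 ± 0.11), whereas Asl, the urea cycle enzyme before it, stood at -0.26 ± 0.16. Cth, which makes cysteine, stood at -0.22 ± 0.10, and the amino acid degrading enzymes Hal, Fah and Hpd at -0.15, -0.12 and -0.07. The sixth was Gpt, whose probe sets disagree as given above.

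Genes of inflammation and of cell division were counted in the same way. Of 24 acute phase genes, 1 was shared higher (Fgg, 0.10 ± 0.07) and 1 shared lower (Saa3, -0.62 ± 0.28). Each is 4.17%, against 8.14% and 12.5% of all genes. Of 18 interferon genes, 4 (22.2%) were shared higher and none lower, against 8.14% and 12.5% of all genes: Oas1a (0.44 ± 0.18), Igtp (0.31 ± 0.12), Oasl1 (0.33 ± 0.29) and Irf1 (0.26 ± 0.18). Igtp, an interferon-induced GTPase, was tight in control liver at 8.39 to 8.45 and read 8.81 and 8.67 at 1.0%. Of 18 cell cycle genes, 3 (16.7%) were shared higher and 2 (11.1%) lower, against 8.14% and 12.5% of all genes. Cdk1, the mitotic kinase, read 4.21 to 4.46 in control and 4.81 and 5.37 at 1.0%, and Ccne1, cyclin E1, 3.88 to 4.58 and then 5.35 and 5.13, both dim. A dimmer Ccne1 probe set overlapped with control (0.13). The remaining shared higher gene was Mcm2, which has no settled direction, since its dimmer probe set was shared lower (-0.27). The helicase subunit Mcm3 was shared lower on its brightest probe set (-1.09 ± 0.34) and shared higher on a dimmer one (0.82), so it has no settled direction. None of 15 clock genes was shared either way on its brightest probe set, against 8.14% and 12.5% of all genes. Dimmer probe sets of Clock (0.19) and Arntl (0.57) were shared higher, while the brightest of Clock stood at -0.29. Dbp, a clock output gene, read 9.87, 9.86, 7.93 and 7.63 in the controls and 10.10 and 9.76 at 1.0%.

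Markers of other liver cells moved by little. The summed linear signal of Kupffer cell markers was 3255 and 3294 at 1.0%, below the control range of 3438 to 3962, with Csf1r, the receptor of macrophage growth factor, and Cd68 shared lower among 13 measured (15.4%, near the 12.5% of all genes). Csf1r read 10.08, 10.36, 10.04 and 9.99 in control and 9.80 and 9.88 at 1.0% (-0.28 ± 0.12), while its 2 other, dimmer probe sets overlapped with control (-0.28 and -0.16). The sum of sinusoidal endothelial markers was 2145 and 2175 against 2207 to 2368. Of 12 measured, Stab2 and Fcgr2b were shared lower (16.7%, against 12.5% of all genes). Lyve1 and Kdr were shared higher (16.7%, against 8.14%). Other Fcgr2b probe sets differed by -0.13 and -0.04, which overlapped with control, and by -0.49, which was shared lower. A dimmer Lyve1 probe set overlapped (0.11). The sum of B and plasma cell markers was 397 and 374 against 294 to 366, through Ighm, the heavy chain of IgM (0.43 ± 0.21). In bulk liver, fewer cells of a type and less RNA per cell cannot be told apart. Markers of stellate cells (3430 and 3402 against 3323 to 3881), T and NK cells, erythroid cells, acinar cells, adipocytes and muscle summed to values within the control range. Neutrophil markers summed to 236 and 204 against 161 to 232, and 7 dim cholangiocyte markers to 91.5 and 111 against 84.1 to 92.1. Clec2d is known from cells of the immune system, and T and NK cell markers summed to 165 and 150 at 1.0% against 144 to 210 in control, with 5 of 14 passing the filter on dim probe sets and 3 at the floor in all 6 samples. Their part in the gene results was not tested.

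The 6 genes given next were picked for the largest difference between the 2 samples at 1.0%, so their disagreement is set by that choice. Saa2, a serum amyloid A of the acute phase, read 7.53 to 8.53 in control, 10.96 in arrays 2, 3, 5 and 6 and 8.13 in array 4. Saa1 read 10.50 to 11.99, then 12.44 and 10.90. Cish, a feedback inhibitor of STAT5 signalling that growth hormone induces, read 6.87, 7.93, 5.56 and 7.87 in control and 8.53 and 6.66 at 1.0%. Serpina4-ps1 (11.14 and 9.75) and the transcriptional regulator Arid5b (8.58 and 7.09) were likewise high in arrays 2, 3, 5 and 6. Alas1, the first enzyme of haem synthesis, read 8.68 there and 7.30 in array 4, the lower of these below the control range of 7.61 to 9.61. A dimmer Alas1 probe set was shared lower, at 5.01 to 6.26 in control and 5.00 and 3.68 at 1.0%. A mean over the 2 samples describes neither of them for the 6 genes. None of the 6 had a limma adjusted p below 0.759, which the choice of unequal genes favours.

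The same fit compared 1.0% with the other doses. The control mean does not enter these contrasts, but the spread of the control samples is part of their SE and p-values. At 0.1% the fit held 3 samples, replicates 2, 4 and 5, since replicates 1, 3 and 6 were left out. Against these, 2 genes (0.0152%) were called in limma and 1600 (12.2%) had an unadjusted p under 0.05. Rbmxl2 was lower by 2.07 ± 0.30, and Nsd3, a histone methyltransferase named after its values were seen, was higher by 1.52 ± 0.21 (adjusted p = 0.0467 for both). The Rbmxl2 call depends on which 0.1% arrays are used, since those left out read 3.00, 3.77 and 3.00. Nsd3 read 8.17 and 8.26 at 1.0%, 7.12, 6.61 and 6.35 at 0.1%, 7.76 and 8.16 at 0.5% and 7.21 to 7.62 in control, so that the 0.1% samples stood below control and the 1.0% samples above. Against 0.5%, 0 genes were called (0%) and 547 (4.16%) had an unadjusted p under 0.05 in limma. The smallest adjusted p in limma was 0.263, reached by Clec2d (1.32 ± 0.22) and Gstm6 (0.88 ± 0.14). Gstm6 read 9.09 and 8.87 at 0.5%, below control, and 9.97 and 9.74 at 1.0%, above it. Values by diet did not follow the dose in order for several of the genes described: Hsp90aa1 averaged 10.67, 10.27, 11.06 and 11.72 from control to 1.0%, and Igfbp1 8.93, 7.94, 8.26 and 7.24.

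**Figure D5:**
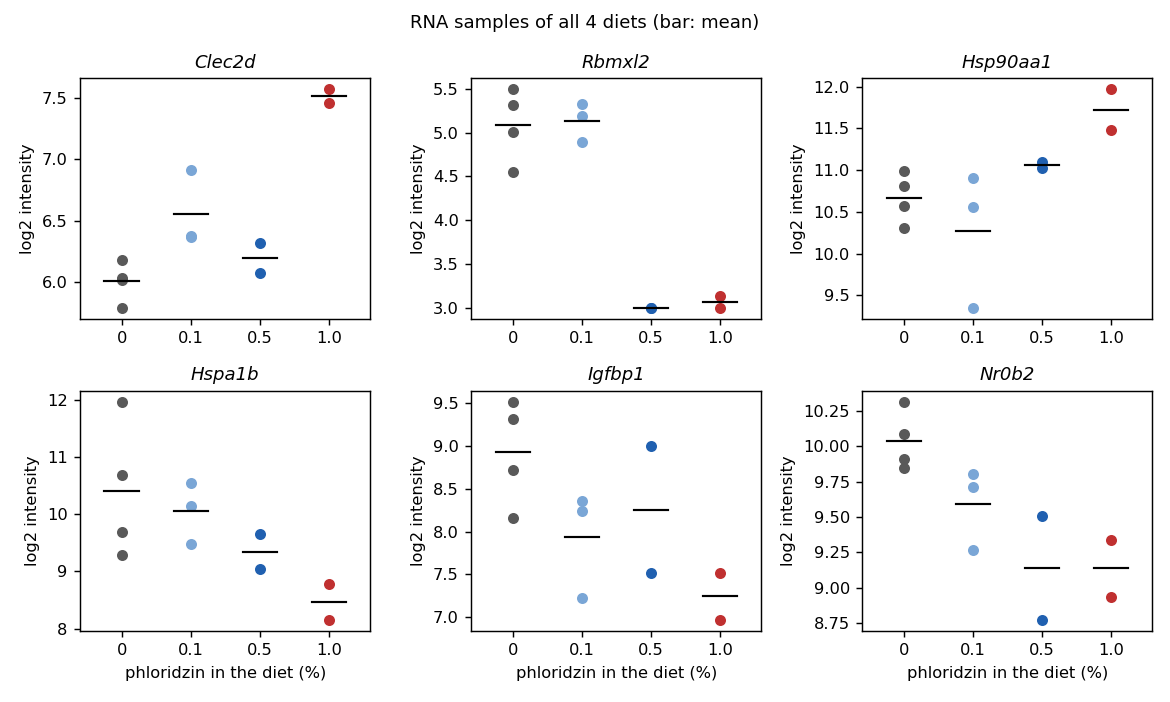
Log2 intensity of 6 genes in the RNA samples of the 4 diets (4 control, 3 at 0.1%, 2 at 0.5% and 2 at 1.0%), with a bar at each mean. Both Clec2d samples at 1.0% lie above the samples of the other diets, Rbmxl2 is near the floor of 3.00 at 0.5% and 1.0%, and Igfbp1 and Nr0b2 at 1.0% overlap with or lie next to the values at 0.5%.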

How the data were processed

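The deposited table holds, per the labels, 1 linear signal intensity per probe set (45101) and array; how the authors summarised, background-corrected or scaled it is not given in the sources used here. All 24 arrays were quantile-normalized, floored at 8 and log2-transformed. Probe sets with 1 gene in the platform annotation (34945) were named (932 had several genes, 9160 were not named), 64 controls and the lowest 40% by mean were left out, and each gene took its brightest probe set. Near-identical arrays were averaged. At 0.1%, replicates 2, 4 and 5 were each a sample, and replicates 1, 3 and 6 were left out with 1.0% replicate 1. At 0.5%, replicates 4 and 5 were averaged, and so were replicates 1, 2, 3 and 6. Replicates 1 and 6 at 0.5% lay at an SD of 0.137 to 0.138 from 2 and 3, above the 0.08 used for repeat pairs. The 11 RNA samples of 4 diets (7 residual degrees of freedom) were fitted together with limma (version 3.58.1, R 4.3.3), using lmFit and then eBayes with a trend. The p-values were two-sided and Benjamini-Hochberg adjusted over 13136 genes. The test was checked on simulated data. Differences are on the floored log2 scale, which understates those of dim genes and can understate their spread, and 5.61% of values were at the floor. Replicate numbers did not pair samples. The members, the rule for named genes (called genes, the 12 largest shared differences each way, up to 4 members of each list by p, 6 genes unequal between the 1.0% samples and a metabolic panel; other shared list members were named after their values were seen) and the 32 gene lists were chosen with earlier results of these data known. Alternatives covered scaling, floor, filter, probe sets, joining, fit and each sample left out. The number of arrays limits the precision.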

Additional observations from a re-analysis of the deposited data

Results flagged for a closer look

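Among 49 genes checked in the 4 control samples, 2 had a sample far from the others by Dixon's test, for which chance gives about 1 in 20. Depp1 read 10.59 in control replicate 5 and 9.94 to 9.98 in the other control samples. G6pc read 10.89 in control replicate 5 and 11.12 to 11.16 in the others.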

How the results depend on the processing

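The count of called genes, 2 as reported, was 1 with median-centred arrays, with unscaled arrays, with the lowest 60% left out or with control and 1.0% alone, 0 with a floor of 16 or without a variance trend, and 8 without the filter, and ran from 0 to 2 when 1 sample was left out. With arrays counted singly it was 1157, under the arrays' labels 402 and with the replicate number as a block 954; replicate numbers did not pair the samples (correlations of -0.004 to 0.009, with the own number the best partner for 0 of 5), and near-identical arrays then count as separate samples. Genes with an unadjusted p under 0.05 (849) numbered 2517 with centred arrays, 2467 without scaling, 1398 with control and 1.0% alone, 1530 with repeat sets only, 3195 with single arrays, 2494 under the labels and 3085 with the replicate block, and 582 to 1248 with 1 sample left out. Shared higher genes (1069) numbered 400, 94, 708, 385 and 129 with centred arrays, without scaling, with repeat sets, with single arrays and under the labels, and 1062 to 2738 with 1 sample left out (2738 and 2504 without either 1.0% sample). Shared lower genes (1639) numbered 4169, 4359, 673 and 209 with centred arrays, without scaling, with single arrays and under the labels, and 1633 to 3414 with 1 sample left out. Of 185 named genes, 122 kept their sign in all 25 settings.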
